A study of Oncorhynchus mykiss with 69 samples.

Results

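Xenobiotic-metabolising enzymes, ATP-binding cassette (ABC) proteins and aryl hydrocarbon receptors of rainbow trout were followed in cultured cells exposed to an organic metal or to a drug. Members were all genes whose symbol in the RefSeq annotation began with cyp, ugt, sult, gst, abca to abcg, ahr, nqo, aldh or akr, followed by a number where the family is numbered. The rule left out 3 genes by name, cyp1a3, cyp1b1 and abcc2. It matched symbols only, but the members were chosen with earlier results of these data known. It found 62 of 72772 annotated genes, of which 54 were in at least 1 of the 6 fold-change tables. The gill, liver and gut tables of methylmercury held 34, 37 and 35 members, of 22579, 23203 and 21859 genes, and 21 members were in all 3. The fluoxetine tables held 26, 35 and 23 members, of 22051, 23526 and 22401 genes, and 15 were in all 3. The other 8 members, abcb11b, abcb5, abcg4a, abcg8, akr1a1a, cyp11b, cyp17a1 and sult5a1, were not analysed here. Symbols were matched as written, so trout copies known only by a locus number are not members.

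Each tissue was represented by 1 established cell line, the gill line RTgill-W1, the liver line RTL-W1 and the intestinal line RTgutGC (written RTgutCC in the labels). Cells were exposed for 24 h to methylmercury, with 2 control libraries and 2 libraries per concentration (5 concentrations), or to fluoxetine, with 1 library at each of 9 concentrations and 2 controls, labelled ctrl and H2O. Methylmercury is given below on the scale of the authors' tables, 0.25, 2.5, 25, 125 and 250, which is 250 times the number in the sample titles and has no stated unit. Fluoxetine ran from 1.6 to 1000 ppb. The labels do not say that libraries of a pair came from separate cultures, so p-values measure the spread between these libraries, which may be technical.

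Detoxification is usually described in stages. Cytochromes P450 (cyp), aldehyde dehydrogenases (aldh), aldo-keto reductases (akr) and quinone reductase (nqo) oxidise or reduce a compound. Glutathione S-transferases (gst), sulfotransferases (sult) and glucuronosyltransferases (ugt) then attach glutathione, sulfate or glucuronic acid, and ABC transporters export the product. The aryl hydrocarbon receptor (ahr) switches on cyp1 genes when it binds planar aromatic compounds, and the transcription factor Nrf2, held back by Keap1, switches on many glutathione-related genes. Methylmercury binds thiols and leaves cells largely as a glutathione conjugate.

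Depth and the general shift bear on every value that follows. Estimated counts in the tabulated genes were 7.74 to 11.5 M in methylmercury pairs, each pair giving 1 value, and 1.83 to 7.67 M per fluoxetine library. CPM below is a gene's estimated count scaled to the depth of its library. A level is log2 of the count plus 0.5, scaled per library by the authors, and the methylmercury libraries were recoverable only as pair means. The median gene fell with methylmercury, by 0.89 in gill, 0.78 in liver and 1.01 in gut at 250 on the log2 scale. Changes of single genes are therefore given relative to the median gene unless called deposited, each with the SE of the difference (n = 2 against 2), and a gene is called at an adjusted p under 0.05. None of 6 epithelial markers was among the genes analysed here in any line. Markers were taken by symbol, so copies known only by a locus number would be missed, and an absent marker may still be expressed. Of 6 fibroblast markers 3, 2 and 3 were present in gill, liver and gut. These collagen and vimentin genes summed to 8409 CPM in gill, 28247 in liver and 3314 in gut controls, and to 3122, 15677 and 5049 at 250. The genes summed were col1a1a, col1a2 and vim in gill, col1a2 and vim in liver, and col1a1, col1a1a and vim in gut. These sums are therefore not comparable between lines. Relative to the median gene col1a2 changed by -0.69 in gill (limma form, adjusted p = 0.00496). In gut col1a1, col1a1a and vim rose by 2.04, 1.84 and 1.09 (adjusted p = 9.2e-06, 3.4e-06 and 0.00333). The other fibroblast genes in gill and liver were not called. Of 9 hepatocyte markers only tf was present in liver, only fga in gut and none in gill. The marker tf stood at 164 CPM in liver controls and changed by -1.16 relative to the median gene at 250 (limma form, adjusted p = 0.00692). In gut fga went from 309 to 607 counts per library and rose by 2.15 (adjusted p = 2.0e-04). The intestinal marker list held 1 gene, vil1, at 2.07 CPM in liver controls and less in gill, and none in gut, the gill ionocyte list 1 gene, slc12a2, at 385, 486 and 239 in gill, liver and gut, and the leukocyte list at most 0.679. At 250 slc12a2 fell by 0.59 in gut (adjusted p = 0.00148). Endothelial genes, not the same set in each line, summed to 2.32, 57.4 and 4.56 CPM in controls and to 0.796, 8.42 and 2.60 at 250. Among them tek fell by 2.06 in liver (adjusted p = 0.0109). The part of these levels in the members' results was not tested. In cultures read in bulk, fewer cells of a type and less RNA per cell cannot be told apart.

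Methylmercury moved the members in both directions. By the F-test over all concentrations in the deposited tables, called members numbered 21 of 34 (gill), 22 of 37 (liver) and 27 of 35 (gut), against 56.8%, 45.8% and 63.4% of all genes. At 250, relative to the median gene, 8, 6 and 10 members were higher and 7, 7 and 12 were lower. Of all genes 17.0%, 15.7% and 21.9% were higher and 19.6%, 13.3% and 25.9% were lower, so the members' counts lay near those of other genes. With the fold changes as deposited, which keep the general fall, 6, 6 and 9 members were higher and 16, 19 and 18 lower, against 11.2%, 9.81% and 11.7% of all genes higher and 49.6%, 44.7% and 54.8% lower. Centred on the more expressed genes (those at or above the median level), 9, 6 and 11 members were higher and 4, 4 and 7 lower, against 21.4%, 16.9% and 28.9% of all genes higher and 13.7%, 10.3% and 17.9% lower. The members' median change at 250 was 0.32 in gill, -0.09 in liver and 0.12 in gut relative to the median gene and -0.57, -0.86 and -0.89 as deposited, and 12, 14 and 10 of the members had under 20 control counts. Without genes in the lower quartile of mean expression the members' median was -0.16, -0.24 and -0.22 relative to the median gene, so its direction turned in gill and gut.

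No member was called at 0.25 or 2.5 in any line. Of all genes 0.0221%, 0.0345% and 0.0549% were called at 0.25 in gill, liver and gut, and 0.0354%, 0.0431% and 0.0503% at 2.5. At 25 the omega-class transferase gene gsto1 was the 1 member called in gill and the 1 called in gut, and none was called in liver, against 0.372%, 0.988% and 0.0690% of all genes in gill, gut and liver. At 125 the calls were 8, 6 and 12 members in gill, liver and gut, against 16.5%, 10.8% and 16.1%. Of the 21 members in all 3 tables, 4 were higher in every line at 250 (5.74% of the genes shared by the 3 tables) and 3 were lower in every line (9.22%). No member was called in opposite directions in different lines, and 5 were called in none. The shares of all shared genes for these last counts are not given here, so they are not read as a trait of the members.

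**Figure D1:**
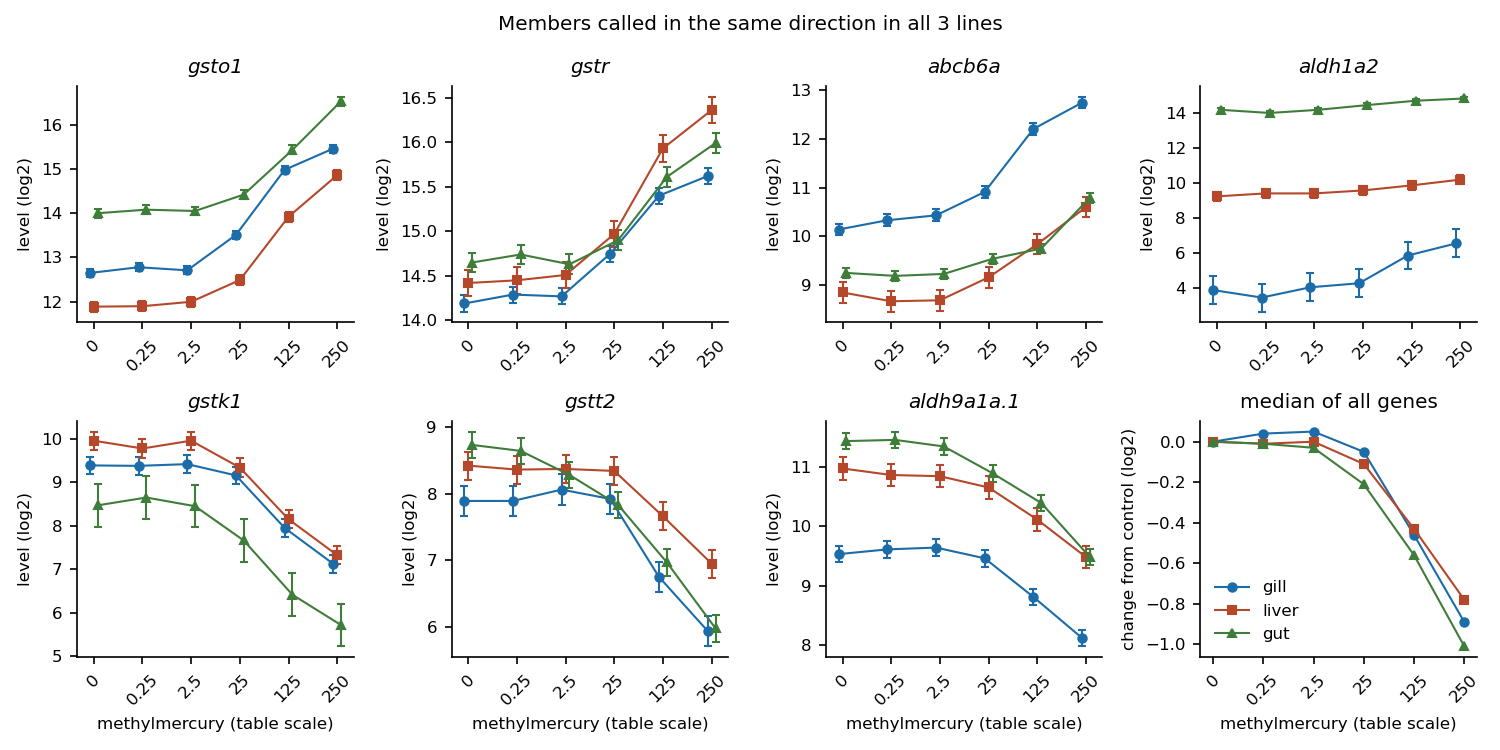
Level (log2 of count plus 0.5, scaled by the authors) of the 7 members called in the same direction in all 3 lines, against methylmercury on the table scale with concentrations evenly spaced, and the change of the median gene in the last panel. Points are means of 2 libraries and bars the recovered residual SD; gsto1, gstr, abcb6a and aldh1a2 climb from 25 upward while gstk1, gstt2 and aldh9a1a.1 descend.

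The glutathione transferases split, with gsto1 and gstr higher and gstk1 and gstt2 lower in all 3 lines. Of 6 gst genes in gill 2 were higher, 2 lower and 2 not called at 250, and of 5 each in liver and gut 2 were higher and 3 lower. The shares of all genes were 17.0%, 15.7% and 21.9% higher and 19.6%, 13.3% and 25.9% lower in gill, liver and gut. All of these gst genes passed the deposited F-test, against 56.8%, 45.8% and 63.4% of all genes. The gene gsto1 encodes an omega-class enzyme with a cysteine in its active site that reduces substrates with glutathione. Its mean level in gill was 12.65 in the control and 12.78, 12.71, 13.51, 14.98 and 15.46 at the 5 rising concentrations. In liver it was 11.89 in the control, 11.90 at 0.25, 0.11 above the control at 2.5, and then 12.49, 13.92 and 14.86. In gut it was 14.00, 14.08, 14.05, 14.42, 15.43 and 16.53. The first 2 concentrations stayed near the control in each line, and the values climbed from the third onward. Relative to the median gene gsto1 rose at 250 by 3.70 ± 0.09 in gill, 3.75 ± 0.11 in liver and 3.55 ± 0.10 in gut, with adjusted p = 1.2e-06, 4.5e-06 and 8.5e-07 by the moderated contrast in limma's form. Estimated counts per library went from 2048 to 13911 in gill, from 1015 to 8386 in liver and from 3898 to 20187 in gut. Relative to the median gene its change at 25 was 0.91 in gill (adjusted p = 0.0159), 0.64 in gut (adjusted p = 0.0433) and 0.71 in liver (adjusted p = 0.167).

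The gene gstr encodes the rho class, a form found in fish. Its level in gill was 14.19 in the control and 14.29, 14.27, 14.75, 15.40 and 15.62 with rising concentration. In liver it was 14.42, then 14.45, 14.51, 14.97, 15.93 and 16.36, and in gut 14.65, then 14.74, 14.63, 14.90, 15.61 and 15.99. As for gsto1, the 2 lowest concentrations lay beside the control. At 250 gstr rose by 2.33 ± 0.09, 2.72 ± 0.15 and 2.35 ± 0.11 in gill, liver and gut (adjusted p = 4.0e-06, 5.1e-05 and 4.9e-06).

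The kappa-class gene gstk1, whose mammalian product lies in mitochondria and peroxisomes, went the other way. Its level in gill was 9.39 in the control, 9.38, 9.42 and 9.16 at the 3 lower concentrations, 7.95 at 125 and 7.12 at 250. The liver series was 9.96, 9.78, 9.96, 9.34, 8.15 and 7.32, and the gut series 8.47, 8.65, 8.45, 7.66, 6.41 and 5.71. The 2 highest concentrations were the lowest values in all 3 lines. Relative to the median gene the change of gstk1 at 250 was -1.37 ± 0.20 in gill, -1.86 ± 0.21 in liver and -1.75 ± 0.49 in gut (adjusted p = 0.00164, 8.4e-04 and 0.0229).

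Theta-class genes also fell. The level of gstt2 at 0, 0.25, 2.5, 25, 125 and 250 was 7.89, 7.89, 8.06, 7.92, 6.75 and 5.94 in gill, 8.42, 8.36, 8.37, 8.34, 7.66 and 6.95 in liver, and 8.73, 8.64, 8.28, 7.83, 6.97 and 5.98 in gut. The means stepped down between 25 and 125 in gill and liver and from 2.5 onward in gut. Below 250 only the gut change at 125 was called by the moderated contrast (adjusted p = 0.00622). Its change at 250 was -1.06 ± 0.23, -0.69 ± 0.21 and -1.73 ± 0.20 (adjusted p = 0.0104, 0.0448 and 3.7e-04). Centred on the more expressed genes alone, the liver value was -0.60 and was not called (adjusted p = 0.0764). The related gstt1a fell by 1.44 ± 0.40 in liver (adjusted p = 0.0317) and stood at -0.47 ± 0.19 in gill, where it was not called (adjusted p = 0.0962). The gene of the zeta class, gstz1, an enzyme of tyrosine breakdown, fell by 0.82 ± 0.21 in gut (adjusted p = 0.0162) and stood at -0.16 ± 0.24 in gill. Its gut value of -0.56 with the more expressed genes as the centre was not called (adjusted p = 0.0651).

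**Figure D2:**
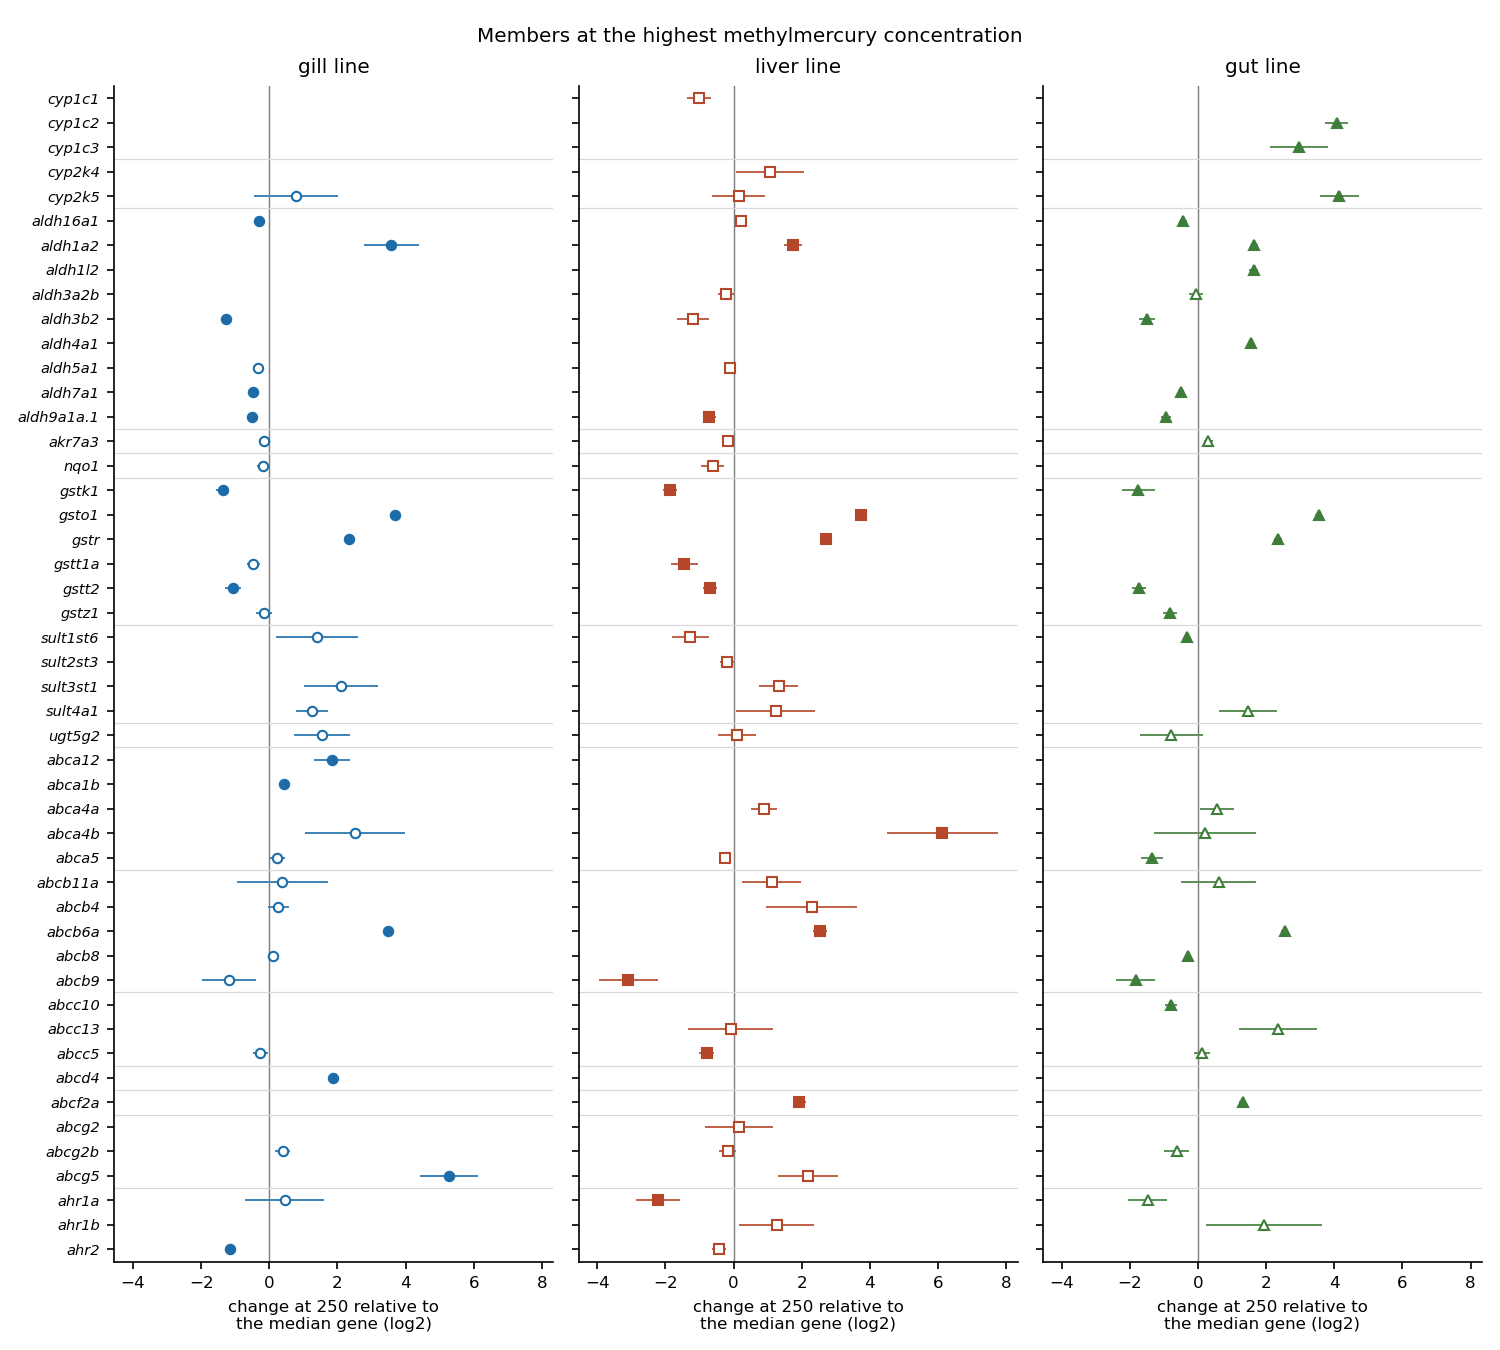
Change of the members at methylmercury 250, 1 of them not shown, relative to the median gene (log2, x axis), by line and grouped by family, with bars for the SE of the difference. Filled points passed an adjusted p under 0.05; the gst, aldh and abcb rows hold filled points on both sides of 0, and the sult and ugt rows hold 1 filled point, sult1st6 in gut.

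The aldehyde dehydrogenases were mixed in the same way. Of 6 members in gill 1 was higher and 4 lower, of 6 in liver 1 was higher and 1 lower, and of 8 in gut 3 were higher and 4 lower. The shares of all genes were 17.0%, 15.7% and 21.9% higher and 19.6%, 13.3% and 25.9% lower. The gene aldh1a2, whose product makes retinoic acid from retinal, had a level of 3.87 in the gill control, 3.44, 4.03, 4.26 and 5.85 at the next 4 concentrations and 6.55 at 250. In liver it went from 9.24 through 9.41, 9.41, 9.58 and 9.87 to 10.20, and in gut from 14.20 through 14.02, 14.20, 14.47 and 14.72 to 14.85. The control levels were far apart, 0.416 CPM in gill, 17.2 in liver and 578 in gut, in tables that were normalised separately. Relative to the median gene aldh1a2 rose by 3.58 ± 0.80, 1.75 ± 0.26 and 1.66 ± 0.10 (adjusted p = 0.0118, 0.00232 and 1.2e-05). The F-test over all concentrations called it in gut (adjusted p = 8.2e-04) but not in gill or liver (adjusted p = 0.0553 and 0.0922). The gill value rests on 4.15 estimated counts per library in the control and 28.5 at 250.

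In gut, where both were in the table, the mitochondrial genes aldh4a1, of proline breakdown, and aldh1l2, of folate metabolism, rose by 1.56 ± 0.09 and 1.64 ± 0.13 (adjusted p = 9.9e-06 and 5.3e-05). Their deposited changes were 0.55 and 0.63. The gene aldh9a1a.1, whose mammalian counterpart serves carnitine synthesis, had levels of 9.53, 9.61, 9.64, 9.46, 8.81 and 8.12 in gill, 10.97, 10.86, 10.84, 10.65, 10.11 and 9.48 in liver, and 11.43, 11.45, 11.34, 10.89, 10.39 and 9.48 in gut. Its change was -0.52 ± 0.14, -0.71 ± 0.19 and -0.93 ± 0.14 relative to the median gene (adjusted p = 0.0262, 0.0292 and 0.00129). Centred on the more expressed genes it was not called in gill, at -0.32 (adjusted p = 0.120), or in liver, at -0.62 (adjusted p = 0.0512). The gene aldh3b2 fell, with changes of -1.27 ± 0.14 in gill and -1.49 ± 0.24 in gut (adjusted p = 3.6e-04 and 0.00205) and stood at -1.18 ± 0.47 in liver (adjusted p = 0.106). The lysine-pathway gene aldh7a1 fell, with changes of -0.49 ± 0.11 in gill and -0.51 ± 0.08 in gut (adjusted p = 0.0132 and 0.00145), and with the more expressed genes as the centre the gill value of -0.30 was not called.

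Members of the akr and nqo families were not called at 250 relative to the median gene. The aldo-keto reductase gene akr7a3 stood at -0.15 ± 0.10, -0.17 ± 0.16 and 0.31 ± 0.13 at 250 in gill, liver and gut. In gut its direction depends on the reference, since its deposited change of -0.71 and its change of 0.56 with the more expressed genes as the centre were both called (adjusted p = 0.00214 and 0.0113). The quinone reductase gene nqo1, a textbook Nrf2 target, had levels of 8.81, 9.07, 8.84, 8.85, 8.20 and 7.74 in gill and 7.18, 7.17, 7.42, 7.11, 6.84 and 5.79 in liver. Its changes of -0.17 ± 0.20 and -0.61 ± 0.34 were not called (adjusted p = 0.552 and 0.218). Its deposited changes of -1.06 and -1.39, which keep the general fall, were called by the same contrast (adjusted p = 0.00242 and 0.00986). The F-test over all concentrations also called it (adjusted p = 0.00475 and 0.0374), so its call depends on the reference.

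Cytochrome P450 members were few and, in the methylmercury tables, mostly of low count. In gut all 3, cyp1c2, cyp1c3 and cyp2k5, were higher at 250, against 21.9% of all genes. In liver none of 3, cyp1c1, cyp2k4 and cyp2k5, was called, and in gill the 1 member, cyp2k5, was not called. Of all genes 15.7% and 17.0% were higher and 13.3% and 19.6% lower in liver and gill. Only cyp2k5 could be compared between lines, since cyp1c2 and cyp1c3 were not among the methylmercury genes analysed in liver or gill. The gene cyp1c2, of a fish family that the aryl hydrocarbon receptor switches on, had gut levels of 4.47, 5.26, 5.04, 4.80, 6.73 and 7.53. It rose by 4.07 ± 0.33 (adjusted p = 6.5e-05), from 4.80 to 38.9 estimated counts per library. Its relative cyp1c3 rose by 2.97 ± 0.86 in gut (adjusted p = 0.0254), on doubled pair values of 1 and 7 counts. A pair value is a mean on the log2 scale, so the true sums over 2 libraries can be higher. With the doubled values taken as observed sums, the ratio of CPM was 6.58. Its exact 95% interval, from 0.845 to 297, is for counting error only and is approximate. With fold changes as deposited, cyp1c3 was not called, nor was it by the F-test over all concentrations (adjusted p = 0.0736). In liver cyp1c1 stood at -1.01 ± 0.36 (adjusted p = 0.0718). Its deposited change of -1.79, which keeps the general fall, was called by the same contrast (adjusted p = 0.00412). The gene cyp2k5 had gut levels of 3.26 in the control, 4.05 at 0.25, 4.39 at 2.5, 0.73 above the control at 25, 5.55 at 125 and 6.40 at 250, and rose by 4.15 ± 0.58 (adjusted p = 9.6e-04). Its doubled pair values of 4 and 35 counts, taken as observed sums, give a ratio of 8.23. The exact 95% interval, from 2.94 to 31.9, is approximate for the same reason. Reads of the similar cyp1c copies, of which cyp1c1 and cyp1c2 are neighbours in the annotation, may be shared between them by the quantification, so their split is uncertain.

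Sulfotransferase and glucuronosyltransferase genes were of low count in many cases. Of 4 sult and ugt members in gill and 5 in liver none was called, and of 3 in gut 1 was lower. The shares of all genes were 17.0%, 15.7% and 21.9% higher and 19.6%, 13.3% and 25.9% lower in gill, liver and gut. With so few members these counts are not read as a trait of the families. The lower gene was sult1st6, of a phenol-sulfating family, with gut levels of 10.98, 11.03, 11.07, 10.80, 10.46 and 9.66. It fell by 0.31 ± 0.08 (adjusted p = 0.0147), and its value of -0.05 with the more expressed genes as the centre was not called. In liver it stood at -1.27 ± 0.55 (adjusted p = 0.130). Its deposited change there of -2.05, which keeps the general fall, was called by the same contrast (adjusted p = 0.0158). The abundant liver gene sult2st3, with 1314 control counts per library, stood at -0.19 ± 0.21. The gene ugt5g2, of a fish glucuronosyltransferase family, had 1.79, 2.46 and 2.85 control counts per library in gill, liver and gut and changes of 1.55 ± 0.83, 0.09 ± 0.56 and -0.78 ± 0.93, none of them called.

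Among 13 ABC members in each line 5, 3 and 2 were higher in gill, liver and gut and 0, 2 and 4 lower. The shares of all genes were 17.0%, 15.7% and 21.9% higher and 19.6%, 13.3% and 25.9% lower. The gene abcb6a, whose mammalian product carries porphyrins across mitochondrial and other membranes, stood out. Its level in gill was 10.14 in the control and 10.33, 10.43, 10.91, 12.20 and 12.74 with rising concentration. The liver values were 8.85, 8.67, 8.69, 9.16, 9.84 and 10.60, and the gut values 9.25, 9.19, 9.23, 9.54, 9.75 and 10.79. The step between 25 and 125 was widest in gill. Relative to the median gene abcb6a rose by 3.49 ± 0.12, 2.53 ± 0.21 and 2.55 ± 0.10 at 250 (adjusted p = 2.7e-06, 2.2e-04 and 2.7e-06).

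The remaining higher ABC genes each passed in 1 or 2 lines, and their tables differ in which genes they hold. The gene abcd4, of lysosomal cobalamin export, rose by 1.86 ± 0.10 in gill (adjusted p = 1.1e-05). The gene abcf2a, whose product has the ATP-binding cassettes but no membrane span and so is no transporter, rose by 1.93 ± 0.20 in liver and 1.31 ± 0.09 in gut (adjusted p = 5.8e-04 and 2.2e-05). The cholesterol exporter gene abca1b stood 0.43 ± 0.13 above the median gene in gill (adjusted p = 0.0376), although its deposited change was -0.47, which was also called, so its direction depends on the reference. The sterol transporter gene abcg5 had 0 counts in the gill controls and 9.56 per library at 250. With 3 counts per control library in place of the 0, its change relative to the median gene was 2.46 on the log2 scale. The count at 250 was taken as exact. The retinoid transporter gene abca4b likewise had 0 counts in the liver controls and 20.8 per library at 250. Its change relative to the median gene at the same floor was 3.31. That row has 23.0 counts at 2.5, 17.2 at 25 and 22.1 at 125, so 250 was no higher than 2.5, and the F-test over all concentrations did not call it (adjusted p = 0.104). In the fluoxetine table of liver the abca4b controls lay at levels of 1.39 and 6.73 and the exposed libraries between 6.22 and 7.18, so a low value also occurred in an unexposed library there. The floor for abca4b covers counting error in the controls only and not such low values. The gene abca12, of lipid transport in skin, went from 3.47 to 6.93 counts per library in gill with a change of 1.84 ± 0.54 (adjusted p = 0.0344). Its deposited change of 0.95 was not called (adjusted p = 0.174), nor was it by the F-test (adjusted p = 0.230).

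Lower ABC genes were found in liver and gut. The gene abcb9, whose mammalian product carries peptides into lysosomes, had liver levels of 6.10, 6.40, 6.53, 6.49, 4.12 and 2.23. It fell by 3.09 ± 0.87 (adjusted p = 0.0339), on doubled pair values of 36 and 2 counts. A pair value is a mean on the log2 scale, so the true sums over 2 libraries can be higher. Taken as if they were observed sums, the doubled values give a ratio of 0.0494 with an exact 95% interval from 0.00576 to 0.192. The interval is therefore approximate. In gut abcb9 went from 3.53 counts per library to 0 (adjusted p = 0.0337), and that call was lost with the more expressed genes as the centre. With 3 counts per library in place of the 0, the gut change of abcb9 was 0.97 relative to the median gene, so at that floor no fall is left. The gene abcc5, of cyclic nucleotide and conjugate export, fell by 0.79 ± 0.22 in liver (adjusted p = 0.0328), and with the more expressed genes as the centre its -0.70 was not called (adjusted p = 0.0543). In gut abcc5 stood at 0.12 ± 0.24 and its deposited change was -0.89. The gene abca5, of lysosomal membranes, fell by 1.35 ± 0.33 in gut (adjusted p = 0.0122), and the changes there of abcc10, at -0.79 ± 0.18, and abcb8, at -0.29 ± 0.10, were called as well (adjusted p = 0.0104 and 0.0459). With the more expressed genes as the centre abcb8 was at -0.03 and not called (adjusted p = 0.840). The drug exporter gene abcg2b was not called, with changes of 0.40 ± 0.22 in gill, -0.17 ± 0.25 in liver and -0.62 ± 0.37 in gut. The counterpart of the mammalian bile-salt exporter, abcb11a, had under 5 control counts in each line.

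The receptors were lower where they passed. The gene ahr2, the main dioxin receptor form of fish, had gill levels of 10.97, 10.82, 10.96, 10.70, 9.97 and 8.94. It fell by 1.14 ± 0.14 in gill (adjusted p = 6.4e-04) and stood at -0.43 ± 0.20 in liver (adjusted p = 0.150). The liver levels were 10.86, 10.68, 10.54, 10.46, 10.03 and 9.65. The gene ahr1a fell by 2.22 ± 0.65 in liver (adjusted p = 0.0400), from 20.1 to 2.22 counts per library. In gut it stood at -2.54 at 125 (adjusted p = 0.0235) and at -1.47 ± 0.57 at 250 (adjusted p = 0.0698). The third receptor gene, ahr1b, had under 1 count per library in the liver and gut controls.

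The lines were then compared with each other at 250. A difference was called for 2 of 28 members between gill and liver, 2 of 24 between gill and gut and 3 of 26 between liver and gut, against 11.6%, 17.5% and 19.3% of all shared genes. The rise of abcb6a was larger in gill than in liver by 0.96 ± 0.24 (adjusted p = 0.0260) and than in gut by 0.95 ± 0.16 (adjusted p = 9.9e-04). The fall of gstt2 was larger in gut than in liver by 1.04 ± 0.29 (adjusted p = 0.0219). The gene cyp2k5 stood at 0.15 in liver and 4.15 in gut, a difference with an SE of 0.96 (adjusted p = 0.0109) that rests on few counts in both lines. The gene abca5 stood at 0.22 in gill and -1.35 in gut, a difference of 1.57 ± 0.40 (adjusted p = 0.0167). The gene aldh16a1 stood at -0.30 in gill, 0.21 in liver and -0.43 in gut, with a difference of -0.52 ± 0.15 for gill minus liver (adjusted p = 0.0359) and of 0.65 ± 0.15 for liver minus gut (adjusted p = 0.00957). The gill and gut values of aldh16a1 were called, and the gill call was lost with the more expressed genes as the centre, as was the gut call.

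Genes that feed or control the members were examined as 3 lists of 29 symbols each, chosen with earlier results known and matched by symbol. At 250, 17.0%, 15.7% and 21.9% of all genes were higher and 19.6%, 13.3% and 25.9% lower in gill, liver and gut. Of the list for co-substrate and electron supply, the genes higher at 250 were 6 of the 8 tested in gill, and 5 of the 7 tested both in liver and in gut, while 0, 0 and 1 were lower. Their median change was 2.94, 3.05 and 2.31 relative to the median gene. Glutathione reductase, gsr, rose by 3.98 ± 0.13, 4.48 ± 0.10 and 4.16 ± 0.09 (adjusted p = 2.2e-06, 2.8e-06 and 5.6e-07). Glutathione synthetase, gss, rose by 2.93 ± 0.10, 2.25 ± 0.12 and 2.23 ± 0.08 (adjusted p = 2.2e-06, 4.4e-05 and 1.6e-06). The sulfate donor transporter slc35b2 was the lower gene, at -0.86 ± 0.14 in gut (adjusted p = 0.00209). Of the regulators 5 of 9, 4 of 8 and 4 of 9 were higher and 0, 2 and 2 were lower, and the median changes were 1.51, 0.76 and 1.08, or 0.61, -0.02 and 0.06 as deposited. The Nrf2 partner gene keap1b rose by 4.13 ± 0.12, 3.59 ± 0.11 and 3.70 ± 0.07 (adjusted p = 1.6e-06, 4.9e-06 and 5.6e-07). The receptor chaperone gene aip fell, with changes of -0.43 ± 0.12 in liver and -0.78 ± 0.10 in gut (adjusted p = 0.0333 and 7.5e-04). Of other drug-handling enzymes 1 of 5, 1 of 6 and 3 of 6 were higher and none was lower, and the median changes were -0.02, 0.20 and 0.76, or -0.91, -0.57 and -0.25 as deposited. The methyltransferase gene comta was higher in all 3 lines, by 3.88 ± 0.17, 1.54 ± 0.25 and 1.93 ± 0.10 (adjusted p = 6.3e-06, 0.00370 and 7.2e-06).

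**Figure D3:**
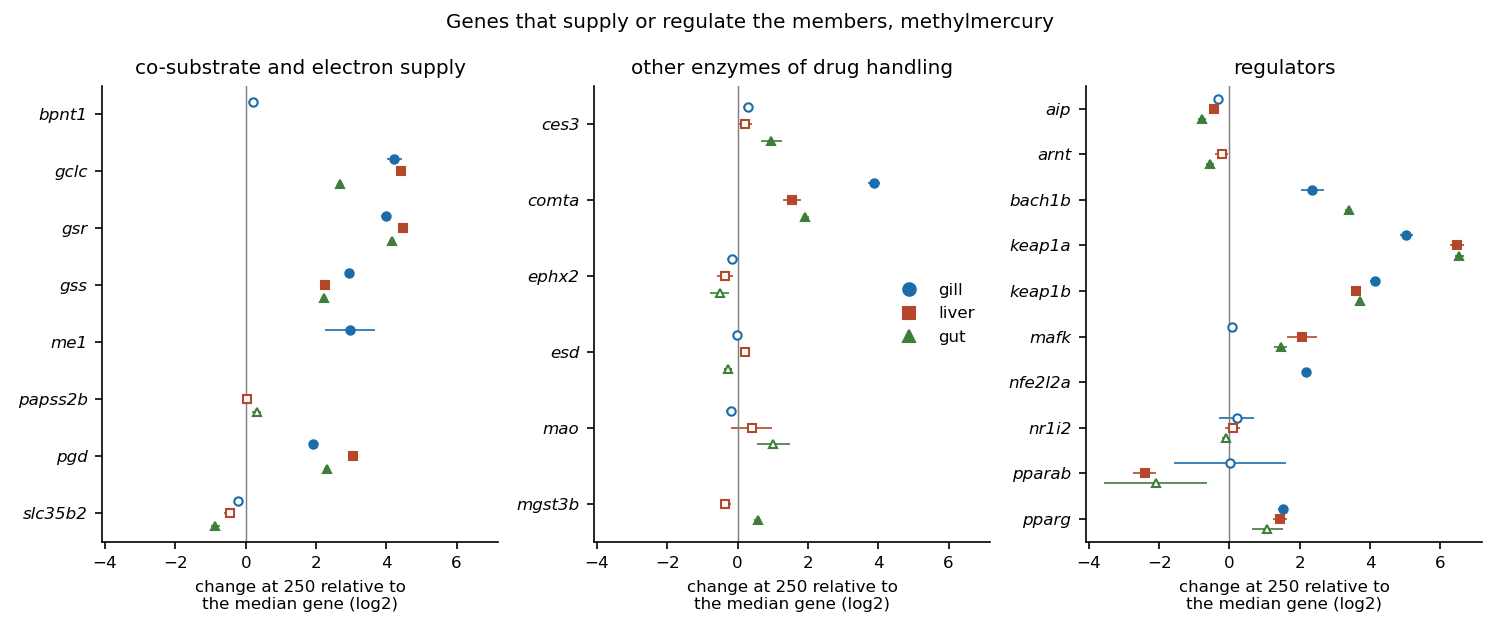
Change at methylmercury 250 relative to the median gene (log2, x axis) for genes that supply co-substrates, handle drugs in other ways or regulate the members, 1 of them not shown, with the SE of the difference as bars and filled points for adjusted p under 0.05. The gsr, gclc, gss, pgd and keap1b points of every line measured lie to the right of 0.

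Benchmark doses, the fitted concentrations of a defined departure from control, were also deposited. In the authors' deposited tables an accepted methylmercury dose was given for 8 of 34 gill, 9 of 37 liver and 11 of 35 gut members, against 21.4%, 15.0% and 28.5% of all genes. In the authors' deposited tables the members' median dose was 13.5, 27.8 and 33.7, and that of all genes 23.1, 28.2 and 26.4. The lowest accepted dose among members in the authors' deposited table of each line belonged to gsto1, at 1.92 in gill (bounds 0.892 to 2.97), 1.59 in liver (bounds 0.557 to 2.66) and 2.64 in gut (bounds 0.951 to 4.63). The gill and liver doses are read from fitted curves below 2.5, where gsto1 stood only 0.01 and 0.11 above the median gene and was not called. No deposited dose was recomputed relative to the median gene, so the general fall is not taken out of the doses. In the authors' deposited tables abcb6a followed at 4.17 in gill (bounds 1.93 to 6.49) and had 9.85 in liver (bounds 3.12 to 18.8). The authors' deposited tables gave gstr a dose of 5.07 in liver (bounds 2.24 to 8.01). Among falling genes the authors' deposited tables gave gstk1 doses of 12.5, 9.43 and 6.57 in gill, liver and gut, with overlapping bounds. In the authors' deposited tables aldh3b2 had 7.63 in gill, ahr2 14.4 in gill, abcc5 27.8 in liver, aldh9a1a.1 6.26 in gut, ahr1a 13.9 in gut and abca5 31.3 in gut. The highest accepted dose was that of cyp1c2 in gut, at 104 in the authors' deposited table.

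**Figure D4:**
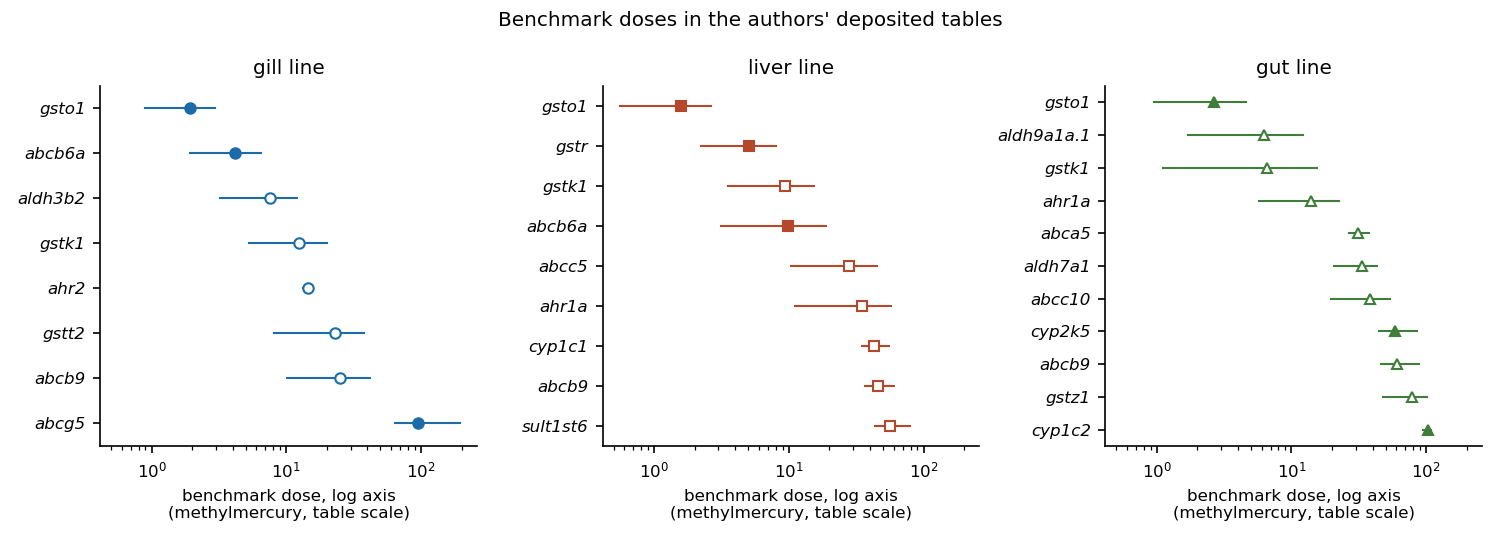
Accepted methylmercury benchmark doses of members in the authors' deposited tables (x axis, log scale, table units) with their lower and upper bounds. Filled points rise and open points fall with concentration; gsto1 has the lowest dose in each line, between 1.59 and 2.64.

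Fluoxetine gave no call among members by the F-test or by the trend on log10 of the concentration, and 1 by the trend on the concentration itself. Of the genes highest with methylmercury, gstr was not among the fluoxetine genes analysed here in any line, and gsto1 was so only in liver. The fluoxetine results therefore do not cover gstr, nor gsto1 in gill and gut. By the deposited F-test 0 of 26, 0 of 35 and 0 of 23 members were called in gill, liver and gut, as were 0%, 0% and 0% of all genes, with lowest adjusted p-values among members of 0.226, 0.320 and 0.367. At an unadjusted p under 0.05 the F-test had 4, 3 and 2 members, against 11.5%, 10.4% and 10.1% of all genes. A limma trend on log10 of the concentration likewise called 0 members and 0% of genes in each line, with 2, 5 and 1 members at an unadjusted p under 0.05, against 5.46%, 6.44% and 6.57% of genes. A trend on the concentration itself called 0, 1 and 0 members, against 0.00907%, 0.123% and 0.161% of genes. Of the members with at least 100 control counts, 13 of 13 (gill), 15 of 16 (liver) and 12 of 12 (gut) stayed within 1 log2 unit of the control mean in every library, as did 97.0%, 96.9% and 98.2% of all such genes.

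Series of gsto1, gstk1 and ahr2 are given as examples with at least 100 control counts, and they were not chosen by slope. They do not stand for members of low count, such as cyp1c2 in gut. Its controls lay at 3.16 and 5.37 and its exposed libraries between 0.65 and 5.13. The gene gsto1, in the fluoxetine table of liver, had controls at 11.95 and 12.01 and exposed libraries at 11.97, 11.98, 11.96, 11.82, 11.77, 11.93, 11.76, 11.90 and 11.85 from 1.6 to 1000 ppb. Its slope was -0.06 ± 0.03 per unit of log10 concentration (limma, adjusted p = 0.812). The gene gstk1 in gill had controls at 9.73 and 9.83 and exposed libraries between 9.35 and 9.88, and in gut controls at 9.98 and 10.25 and exposed libraries between 9.84 and 10.32. The receptor gene ahr2 in gill had controls at 11.51 and 11.54 and exposed libraries between 11.37 and 11.69. Exposed values of gstk1 and ahr2 lay on both sides of their controls, while those of gsto1 lay below its higher control.

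The smallest unadjusted p-values of the trend belonged to small slopes. In liver cyp1c2, abundant in the fluoxetine table with 1016 control counts, had controls at 11.95 and 12.08 and exposed libraries at 11.97, 11.98, 12.20, 12.08, 12.20, 12.02, 12.34, 12.19 and 12.44. Its slope of 0.12 ± 0.04 did not pass (limma, adjusted p = 0.633), and 5 of 9 exposed libraries lay at 12.19 or higher. In gill abca1b had controls at 11.56 and 11.67 and 11.99 at 1000 ppb, with a slope of 0.11 ± 0.03 (adjusted p = 0.872). In liver abcc5 had controls at 10.67 and 10.78 and 11.08 at 1000 ppb, with a slope of 0.11 ± 0.03 (adjusted p = 0.643).

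The 1 member called by the trend on the concentration itself was abcb6a in liver. Its controls were at 8.60 and 8.84 and the exposed libraries at 8.70, 8.80, 8.47, 8.77, 8.74, 8.82, 8.30 and 8.19 up to 500 ppb, and at 1000 ppb it was listed at 0 counts against 103 in the controls. The slope over the full range was -6.90 ± 0.99 with all libraries (limma, adjusted p = 0.0347) and -1.13 ± 0.34 without the 1000 ppb library (adjusted p = 0.695). The call was also lost without any 1 of the libraries at 1.6, 4, 8, 20, 40, 100 or 200 ppb, with slopes from -7.00 to -6.86 and adjusted p from 0.0629 to 0.0747, and it was kept without that at 500 ppb, at -7.97 ± 0.48 (adjusted p = 1.9e-04). In the liver library at 1000 ppb 10 of 9658 genes with at least 100 control counts, 0.104%, were listed at 0. The same gene in gill had controls at 10.13 and 10.25 and 10.52 at 1000 ppb, and in gut controls at 9.27 and 9.48 and 9.22 at 1000 ppb. In the authors' deposited tables abcb6a in liver was the 1 member with an accepted fluoxetine benchmark dose, 419 ppb (bounds 355 to 456), of 0 of 26, 1 of 35 and 0 of 23 members. The authors' deposited tables accepted a fluoxetine dose for 1.51%, 1.04% and 1.10% of all genes.

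Listed zeros also marked abcg2b and abcb4 in gill. The gene abcg2b had 47.1 control counts and was listed at 0 at 4 and at 1000 ppb, while the other 7 exposed libraries lay between 6.38 and 7.57 around controls at 7.07 and 7.28. The gene abcb4, whose mammalian product moves phosphatidylcholine, had controls as far apart as 0.56 and 6.55 and was listed at 0 at 1000 ppb, with 8 exposed libraries between 6.22 and 7.13. Such values appear beside ordinary ones in the same series and follow no order of concentration in abcg2b.

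**Figure D5:**
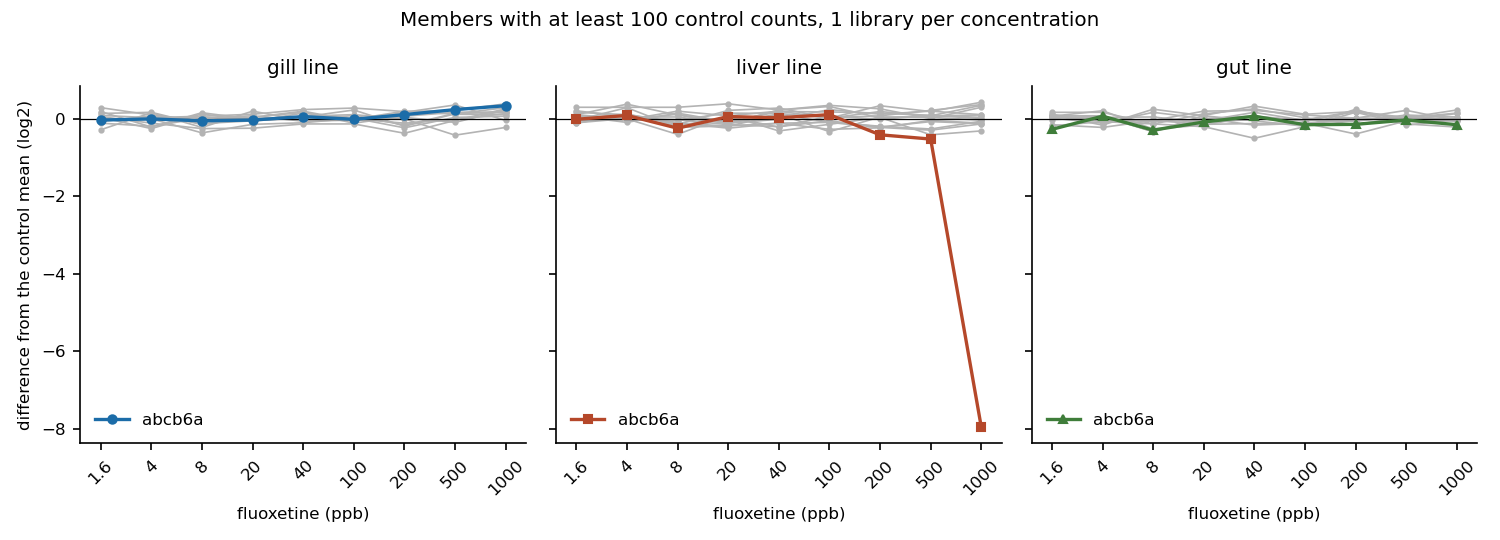
Difference from the control mean (log2, y axis) of members with at least 100 control counts (1 not shown), in 1 library per fluoxetine concentration (ppb, evenly spaced). Grey lines are single genes and the coloured line abcb6a; all values lie within 1 unit of the control except abcb6a in liver at 1000 ppb, which was listed at 0 counts.

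Both chemicals can be set side by side for the 10 members in all 6 tables. The 3 of them that follow are those called with methylmercury in all lines. They were thus picked by their methylmercury values, and a contrast with fluoxetine is not read as a trait of the 10. The methylmercury change at 250 is given relative to the median gene, with the deposited change, which keeps the general fall, in brackets. The fluoxetine median gene moved by at most 0.09, so fluoxetine values are given as deposited. The gene abcb6a changed by 3.49, 2.53 and 2.55 with methylmercury in gill, liver and gut (deposited 2.60, 1.75 and 1.53). With 1000 ppb fluoxetine it stood 0.33, -7.96 and -0.16 from the control mean, the liver value being the library listed at 0 counts. The gene gstk1 changed by -1.37, -1.86 and -1.75 with methylmercury (deposited -2.27, -2.64 and -2.76). It stood at -0.23, 0.29 and 0.01 with 1000 ppb fluoxetine. The gene gstt2 changed by -1.06, -0.69 and -1.73 (deposited -1.95, -1.47 and -2.74) and stood at -0.35, -0.32 and -0.22. The highest concentrations of the chemicals are not matched doses, so the values are given without a test.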

How the data were processed

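RNA sequencing of 69 libraries was available as 12 deposited tables, a fold-change table and a benchmark-dose table per line and chemical. Reads were processed with fastp and Salmon, per the submitters' processing notes; versions, the genome build and the rule by which genes entered a table are not given in the sources used here. The authors deposited fold changes and mean expression as log2 values, an F-test's p-value and adjusted p-value for all concentrations together, the F statistic, and benchmark doses with a lack-of-fit p-value and bounds.

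Control means, levels, the moderated residual variance and its degrees of freedom (7.11, 7.28 and 7.11 for methylmercury and 2.43, 2.30 and 2.27 for fluoxetine in gill, liver and gut) were computed from these columns. Estimated counts were the back-transformed levels with an offset of 0.5, and for fluoxetine 70.8%, 70.4% and 71.3% of those under 50 came within 0.05 of a whole number. They are estimates and were used for no test. For methylmercury they come from group means on the log2 scale, which can lie below the mean count. The control pair of fluoxetine was recovered as a distance, without knowing which was higher.

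Contrasts at each concentration and differences between lines used the recovered variance in limma's form, centred on the median of all genes, with Benjamini-Hochberg adjustment over the whole table at 0.05. Fluoxetine trends were fitted with limma 3.58.1 in R 4.3.3 on log10 of the concentration plus 1.6 ppb, with the controls at 0. Other steps used Python 3.11.15, numpy 2.4.6, pandas 2.3.3, scipy 1.17.1 and matplotlib 3.10.9, and the procedures were tested on simulated data. For 0 counts a floor of 3 counts per library was put in place of the 0. Changes at that floor are relative to the median gene and take the other count as exact. The floor and the exact 95% intervals on counts cover counting error only. The intervals take doubled and rounded methylmercury pair values as if they were observed sums. The true sums can be higher, so the intervals are approximate.

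Gene symbols came from the RefSeq table of assembly USDA_OmykA_1.1, to which all gene identifiers matched, and no coordinates are printed. Promoter motifs and sequences were not analysed here, and the values of 1 member and 1 listed gene are not reported here, although the counts and medians include them. The members, gene lists and naming rule were chosen with earlier results of these data known. Genes named by rule were members called in every line and the 4 highest and 4 lowest calls in each line. The rule also took the highest control level of each family with at least 3 members and the 3 highest and 3 lowest fluoxetine slopes. The 5 lowest benchmark doses and the largest line differences completed it. Not all genes of extreme fluoxetine slope are described, and the fluoxetine series of gsto1, gstk1 and ahr2 were not chosen by slope. The members abca12, abcb8, abcc10, abcd4, abcf2a, akr7a3, aldh1l2, aldh4a1, cyp1c1, gstz1 and nqo1 and the listed genes were named after their values were seen, to complete their families. Alternatives covered the centring, a filter on the lower quartile of mean expression, a threshold of 0.01, leaving out the highest concentration or each fluoxetine library, an offset of 5 counts, and the trend on concentration itself.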

Additional observations from a re-analysis of the deposited data

Results flagged for a closer look

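At methylmercury 250, 7 differences between lines in members' changes passed a test of the difference itself (limma form, adjusted over all shared genes). For abcb6a the change in gill exceeded that in liver by 0.96 and that in gut by 0.95. For aldh16a1 the difference was -0.52 for gill minus liver and 0.65 for liver minus gut. For abca5 it was 1.57 for gill minus gut. For cyp2k5 it was -3.999 for liver minus gut, on 6.86 and 1.79 control counts per library. For gstt2 it was 1.04 for liver minus gut. Of all shared genes 11.6%, 17.5% and 19.3% differed between gill and liver, gill and gut, and liver and gut.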

How the results depend on the processing

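With fold changes centred on the median gene the F-test called 10 members in gill and 6 in liver. As deposited, it called 3 in liver without the highest concentration and 11 in liver at an adjusted p under 0.01. The shares of all genes under these settings are not given here, so these counts are not read as a trait of the members. With fold changes as deposited 16 members in gill and 19 in liver were lower at 250, against 49.6% and 44.7% of all genes. Liver and gut then differed in 7 members, for which no share of all genes is given here. Centred on the more expressed genes, whose median lay 0.19, 0.10 and 0.26 below that of all genes in gill, liver and gut, 4, 4 and 7 members were lower. The shares of all genes lower under that centring were 13.7%, 10.3% and 17.9%. As deposited, 8, 4 and 5 members in gill, liver and gut took the opposite sign, of which 5, 3 and 3 were called under neither reference. The others stood at -0.47 for abca1b, -0.67 for abca5 and -0.78 for abcb8 in gill, -0.56 for aldh16a1 in liver, and -0.89 for abcc5 and -0.71 for akr7a3 in gut. The cause was not tested. Without genes of the lower quartile of expression the members' median change was -0.16 in gill, -0.24 in liver and -0.22 in gut, and the counts of calls stayed within 1.5 times. The trend of fluoxetine on the concentration itself called 1 member in liver, and 0 to 1 with any 1 exposed library left out, an alternative chosen after seeing the data: it was 1 without 500 ppb and 0 without any other. The trend on log10 of the concentration called 0 members in each line with any 1 exposed library left out, with each library centred, with an offset of 5 counts and with the filter. The stricter limits on benchmark doses left the same 8, 9 and 11 members. No paired analysis was possible because only the mean of each methylmercury pair could be recovered, which also kept the runs without each replicate from being made. Depth limits the members under 20 control counts, and 1 library per fluoxetine concentration limits the precision there.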
